A study of Homo sapiens with 102 samples.

Results

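Trametinib given from both drug sources of a droplet screen was set against trametinib given from only 1 of them, in K562 cells. Members were chosen by the drug names in the labels, without the use of any measured value. The 6 libraries listed as Trametinib_Trametinib held 2 portions of the drug. The 12 libraries listed as Trametinib_DMSO or DMSO_Trametinib held 1 portion and 1 portion of DMSO, the solvent. These 18 were part of a series of 102 libraries. A single-portion library with fewer than 1000 detected genes was dropped, which left 6 against 11.

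The series came from Combi-Seq, in which cells are enclosed with a pair of drugs in picolitre droplets and each drug brings its own barcode fragment. Messenger RNA is copied from the ligated barcode pair, which tells the drug combinations apart after pooling. There were 2 screens, dT and Bio, which differed in the barcoding scheme, with 3 runs each and 16 ordered drug pairs per run. All droplets were incubated for 12 h, and every group, the solvent pair DMSO_DMSO included, carried DMSO, barcode fragments and the same K562 background. K562 is an established line of chronic myeloid leukaemia cells with the BCR-ABL fusion gene, so all results come from 1 line. The labels give no concentration for this screen. Each source added its drug at its own fixed share of the droplet, so 2 portions is a nominal statement about sources and not a measured dose. The labels do not tie a listed position to a source, and the groups are called by their listed order. The runs are described as biological replicates. The main tests compared libraries within runs, so p-values measure the spread between libraries that remains once the run level is taken out. With both listings pooled, that spread includes any difference between Trametinib_DMSO and DMSO_Trametinib.

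Trametinib is an inhibitor of MEK1 and MEK2, the kinases encoded by MAP2K1 and MAP2K2. MEK phosphorylates ERK, which in turn drives transcription of early response genes and of its own feedback inhibitors, such as the DUSP, SPRY and SPRED families. In K562 cells the chain is fed by the BCR-ABL kinase through RAS and RAF. The comparison of 2 portions with 1 asks whether more of the same inhibitor moved the transcriptome further. Since each drug brings its own barcode fragment, the second portion also changed the barcode pair. Within a screen, portion and barcode pair cannot be told apart.

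The libraries differed before any gene was compared. With 2 portions, total counts ran from 332212 to 491193 in the dT screen and from 175540 to 360523 in the Bio screen. Trametinib_DMSO libraries were close to this, with 347290 to 428546 (dT) and 152072 to 296766 (Bio). DMSO_Trametinib libraries were shallower, with 183814 to 254737 counts in the dT screen, and with 171723 and 82879 in the 2 Bio libraries used. The dropped library, run 1 of the Bio DMSO_Trametinib group, had 93932 counts and 808 detected genes. Total counts were 1.47-fold higher with 2 portions and higher in 6 of 6 runs, but an exact two-sided permutation test within runs gave p = 0.0226 and an adjusted p of 0.0679 over 3 measures. DMSO_DMSO libraries, also with DMSO listed first, held 174365 to 198316 counts (dT) and 81806 to 147320 (Bio). In such pooled droplets fewer cells, less RNA per cell and a difference between barcode pairs cannot be told apart.

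Detected genes, those with at least 1 count, exceeded the single-portion level by 365 (exact permutation p = 0.362, adjusted p = 0.543), and by 73.1 with every library thinned to 82879 counts (p = 0.761). Both differences depended on the listing. At 82879 counts the dT means were 2733 genes with 2 portions, 3144 in Trametinib_DMSO and 1988 in DMSO_Trametinib. The Bio means were 1379, 1620 and 1073 in the same order. Without thinning, detected genes were 274 fewer with 2 portions against Trametinib_DMSO alone and higher in only 1 of 6 runs. Against DMSO_Trametinib alone they were 1243 more and higher in 5 of 5 runs (exact permutation p = 0.0625 for each listing). The share of counts from mitochondrial genes was 5.06% ± 0.93 (SD, n = 6) with 2 portions and 5.32% ± 0.761 (SD, n = 11) with 1 (exact permutation p = 0.56, adjusted p = 0.56). Here too the direction turned with the listing, with 0.66 points less against Trametinib_DMSO (higher in 0 of 6 runs) and 0.54 points more against DMSO_Trametinib (higher in 5 of 5 runs). Ribosomal protein genes took 21.4% to 22.7% of counts with 2 portions in the dT screen, against 17.3% to 19.9% in Trametinib_DMSO and 21.5% to 25.1% in DMSO_Trametinib. The same shares in the Bio screen were 24.5% to 25.7%, 16% to 22.2%, and 27.4% and 28.6%. The 2-portion libraries therefore lay between the 2 single-portion listings in the Bio screen and above Trametinib_DMSO in both.

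**Figure D1:**
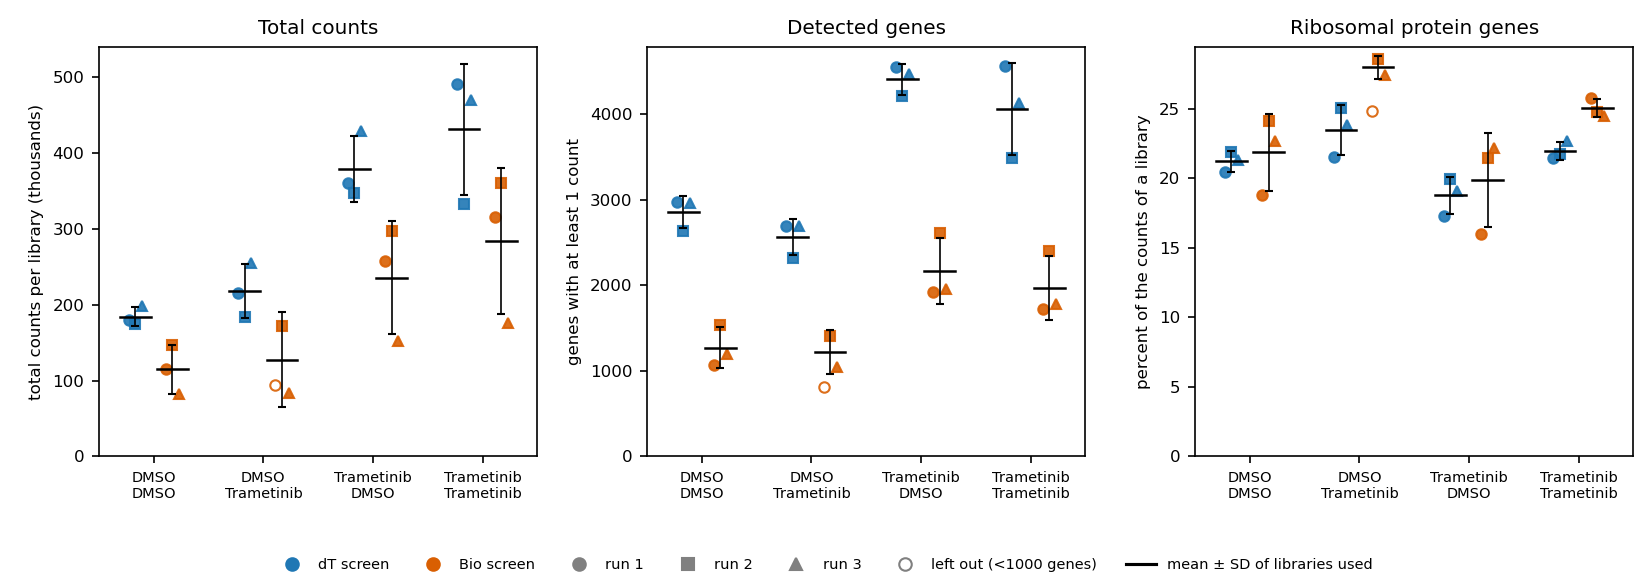
Total counts (axis in units of 1000 counts), detected genes and the percent of counts from ribosomal protein genes in each library with 0, 1 or 2 portions of trametinib, by listed drug pair. Points are libraries (colour, screen; shape, run), the open circle is the library left out, and bars are mean ± SD of the libraries used. DMSO_Trametinib libraries lie below the libraries with 2 portions in total counts and detected genes in every run of both screens.

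Across both screens no gene differed between 2 portions and 1 by the main test. Genes were tested where at least 50% of the 17 libraries held a count. Of the 1502 such genes, edgeR's quasi-likelihood test with screen and run as a block called 0 at an adjusted p under 0.05, which is 0% of the genes tested. At an unadjusted p under 0.05 there were 80 genes (5.33% of those tested), 45 higher (3%) and 35 lower (2.33%) with 2 portions. The smallest adjusted p was 0.105, for ZC3HAV1. DESeq2 on the same libraries called 49 genes, 25 higher and 24 lower. Of these 49, 34 had a count in fewer than 75% of the libraries and 1, FTL, had a count in every library. The median log2 fold change over all genes was 0.086 under TMM scaling and lower by 0.17 under DESeq2 size factors, so small fold changes have to be read against that shift.

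Few genes were measured well enough to exclude a change of moderate size. Only 180 genes had a count in all 17 libraries. For 27 of these (15%) the 95% confidence interval of the fold change lay within 2-fold in either direction, and over all genes tested this held for 34 (2.26%). The median standard error was 0.741 on the log2 scale for genes counted in every library and 2 for genes counted in 50% to under 75% of libraries. For most genes the interval thus held a 2-fold change. Which part of this came from depth and which from spread between libraries was not tested. The filter was also uneven, since a gene counted only with 2 portions could reach at most 6 of 17 libraries and was never tested, while a gene counted only with 1 portion could pass.

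Among the leading genes of high abundance were ribosomal proteins and a ferritin chain. RPS15 (ENSG00000115268, GRCh38 chr19:1438358-1440494, a protein-coding gene in GENCODE 29) encodes a protein of the small ribosomal subunit. With 2 portions it stood at 13070, 20165 and 13057 CPM (counts scaled to the same library total) in runs 1 to 3 of the dT screen and at 21546, 20262 and 27384 CPM in the Bio screen. Single-portion dT libraries ranged from 11304 to 13925 CPM with a median of 12870, and the 5 Bio libraries from 11041 to 19583 CPM with a median of 15561. The 3 Bio libraries with 2 portions lay above all 5 with 1, while in the dT screen only run 2 stood clear of the single-portion range. RPS15 was higher than the mean of its single-portion partners in 6 of 6 runs. The log2 fold change was 0.55 ± 0.15 (SE, 95% confidence interval 0.23 to 0.87, n = 6 against 11), with an adjusted p of 0.617 by edgeR's quasi-likelihood test. It was 0.37 in the dT screen and 0.77 in the Bio screen.

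RPL31 and RPL34, of the large ribosomal subunit, had log2 fold changes of 0.35 ± 0.10 and 0.24 ± 0.10 (SE, n = 6 against 11). RPL31 (GRCh38 chr2:101001715-101024032) measured 23013 to 29530 CPM with 2 portions and 17755 to 32912 CPM with 1 in the dT screen, and 23471 to 42741 against 12432 to 45748 CPM in the Bio screen. RPL34 (GRCh38 chr4:108620566-108630412) measured 15910 to 27216 against 14068 to 29132 CPM in the dT screen, and 17616 to 23277 against 10584 to 24563 CPM in the Bio screen. RPL31 was above the mean of its single-portion partners in 6 of 6 runs and RPL34 in 5 of 6, but the ranges overlapped in both screens and neither passed the test (adjusted p of 0.675 and 0.886 by edgeR). Against DMSO_Trametinib alone, each was higher in CPM in 1 of 5 runs.

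FTL, the light chain of the iron store ferritin, led the abundant genes in the other direction. In the dT screen it gave 10857, 8287 and 3711 CPM with 2 portions (GRCh38 chr19:48965301-48966878), against 7147 to 19467 CPM with a median of 12170 in the 6 single-portion libraries. Its Bio libraries gave 5318, 8199 and 4210 CPM with 2 portions, all below the single-portion range of 9110 to 13172 CPM. FTL was lower than the mean of its single-portion partners in all 6 runs. The log2 fold change was -0.80 ± 0.24 (SE, 95% confidence interval -1.32 to -0.28), with an adjusted p of 0.816 by edgeR and 0.00219 by DESeq2, so the call depended on the tool. In DMSO_DMSO, the solvent alone, FTL averaged 8892 ± 2484 CPM (SD, n = 3) in the dT screen and 8315 ± 3383 CPM in the Bio screen, and the 2-portion range overlapped the solvent range in both.

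BLVRB, an enzyme that reduces biliverdin and flavins in red cell precursors, showed how far the listing of the single portion mattered. Trametinib_DMSO libraries measured 7343, 9090 and 12458 CPM in the dT screen and 2839, 2584 and 8628 CPM in the Bio screen. DMSO_Trametinib libraries measured 1520, 1180 and 3278 CPM (dT), and 652 and 1460 CPM (Bio). With 2 portions the values were 2675, 2712 and 3666 CPM (dT) and 487, 394 and 348 CPM (Bio). The level with 2 portions was thus below Trametinib_DMSO in 6 of 6 runs and above DMSO_Trametinib in 3 of 5. The log2 fold change was -1.65 ± 0.64 against both listings, -2.31 ± 0.43 against Trametinib_DMSO (adjusted p = 0.0488 by edgeR) and 0.15 ± 0.94 against DMSO_Trametinib (adjusted p = 1).

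**Figure D2:**
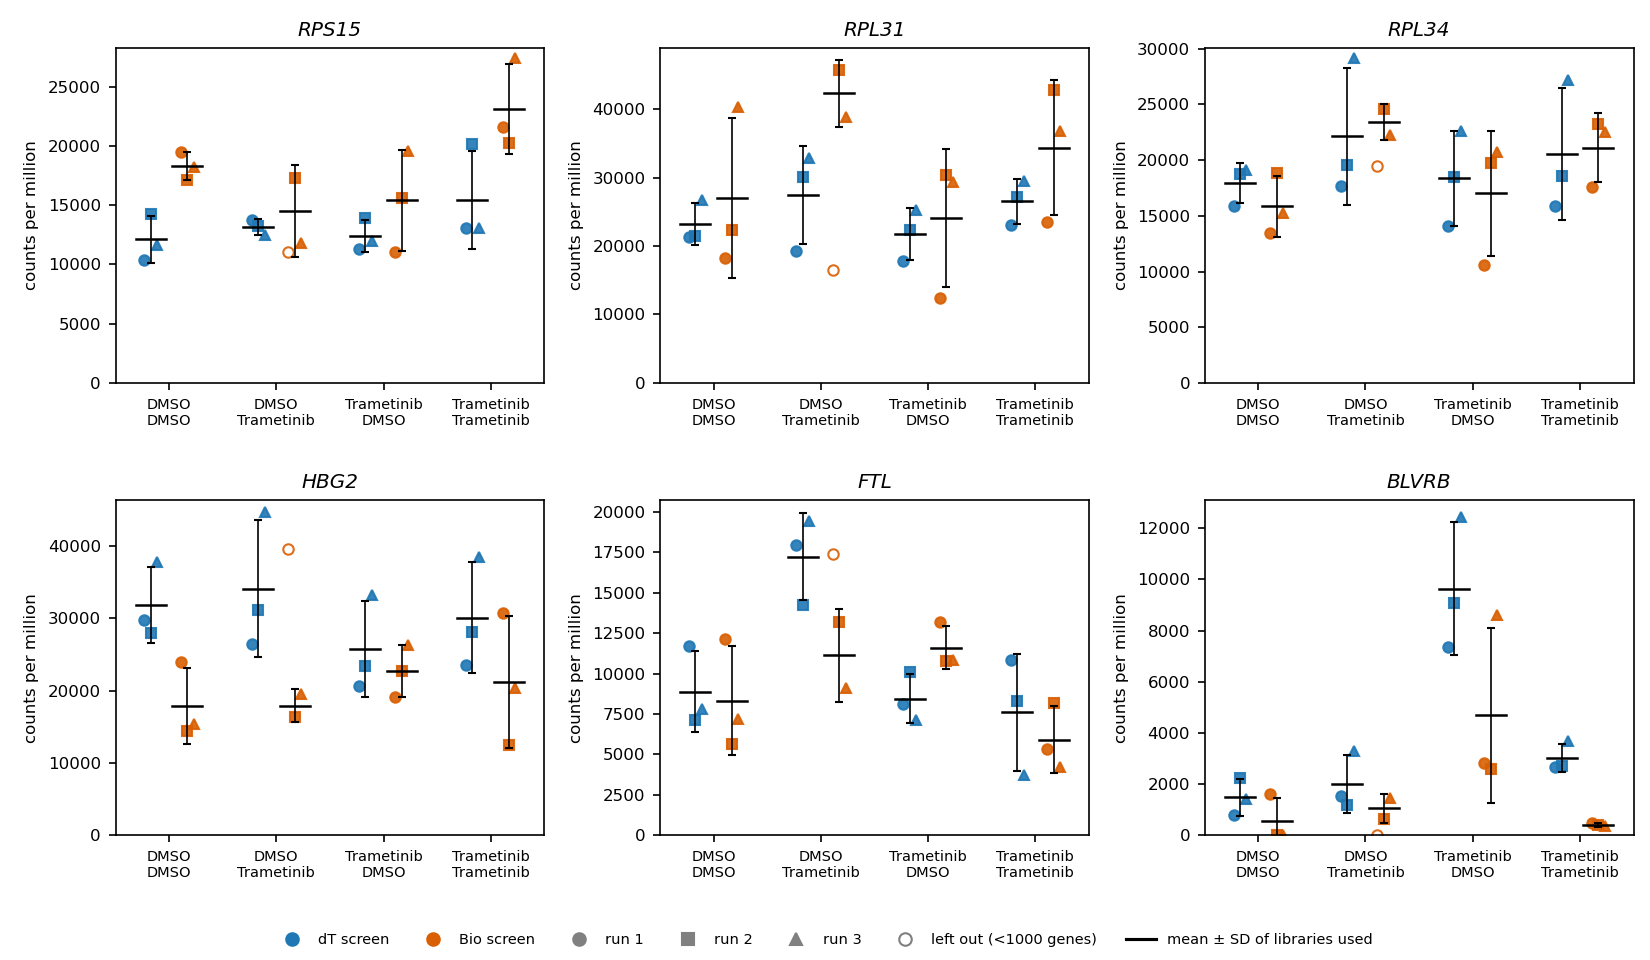
Level of RPS15, RPL31, RPL34, HBG2, FTL and BLVRB in CPM in every library, by listed drug pair. Points are libraries (colour, screen; shape, run), the open circle is the library left out and bars are mean ± SD of the libraries used. In the Bio screen RPS15 lies above and FTL and BLVRB lie below every single-portion library used, while in the dT screen the ranges overlap.

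Which single-portion listing was used changed the calls. Against Trametinib_DMSO alone, 3 genes passed in both screens together, RPL31 (log2 fold change 0.56 ± 0.08) and RPS15 (0.57 ± 0.11) higher and BLVRB lower. Against DMSO_Trametinib alone 0 genes passed, with RPS15 at 0.64 ± 0.18 and RPL31 at 0.19 ± 0.12. The median over all genes was -0.12 against Trametinib_DMSO and 0.60 against DMSO_Trametinib, so RPS15 stood above the median gene in the first fit and near it in the second, and in CPM it was higher in 6 of 6 and in 4 of 5 runs. RPL34 stood at 0.38 ± 0.09 against Trametinib_DMSO and at 0.15 ± 0.13 against DMSO_Trametinib, lower against the second as RPL31 was. MT-CO3, a mitochondrially encoded subunit of cytochrome c oxidase, stood at 0.23 ± 0.11 against Trametinib_DMSO and at 0.89 ± 0.22 against DMSO_Trametinib. The median gene rose likewise, from -0.12 to 0.60, and MT-CO3 stood above it in both fits.

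In the single screens the same split gave 10 and 8 genes in the dT screen and 4 and 4 in the Bio screen, first against Trametinib_DMSO and then against DMSO_Trametinib. RPS15 was among them in all 4 fits, higher in each. Its log2 fold change in the dT fit against DMSO_Trametinib, 0.49, lay below the median of 0.89 over all genes. It lay above the median in the dT fit against Trametinib_DMSO (0.46 and -0.13) and in the Bio fits (0.70 and -0.10, then 0.90 and 0.27). The fits of a screen shared their 2-portion libraries. These fits held 5 or 6 libraries and left 1 or 2 residual degrees of freedom, and edgeR then took 1 spread for genes of like level instead of a spread per gene. Their adjusted p-values rest on that pooled spread.

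**Figure D3:**
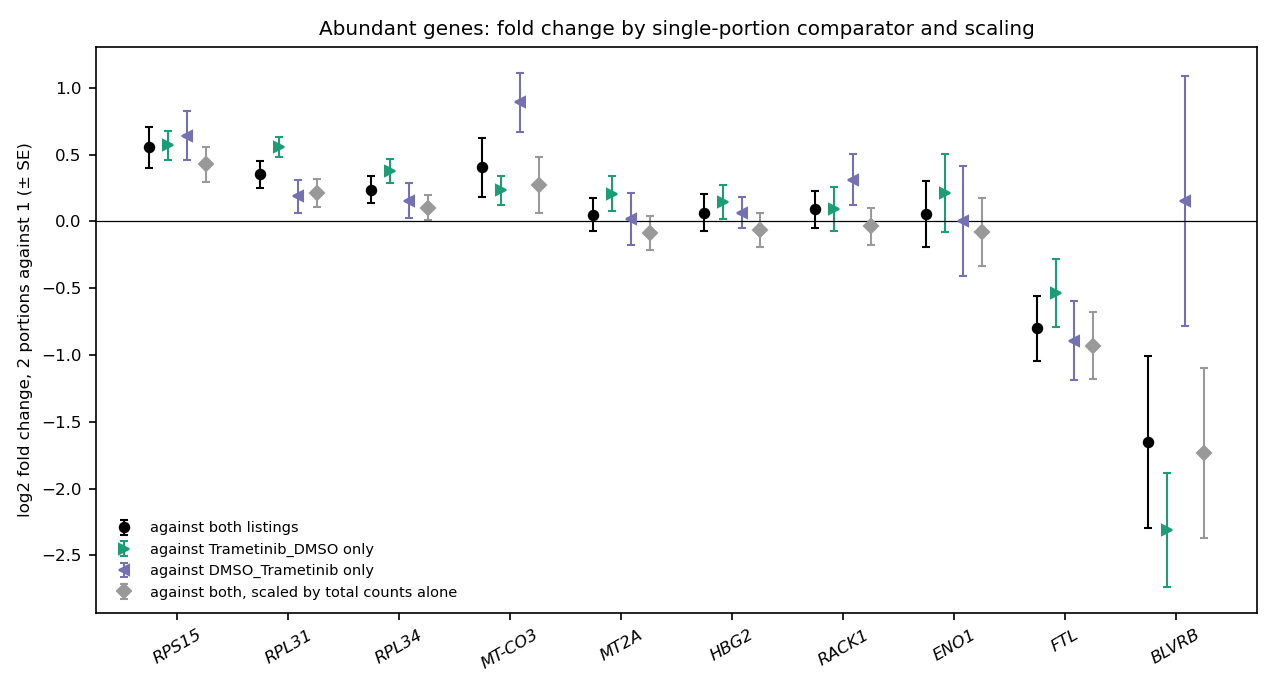
Log2 fold change of 2 portions against 1 with its standard error for 10 abundant genes, fitted against both single-portion listings, against Trametinib_DMSO only, against DMSO_Trametinib only, and against both with counts scaled by library total alone. RPS15 lies above 0 and FTL lies below 0 in all 4 fits, while BLVRB moves from -2.31 to 0.15 with the listing.

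Most other leading genes were sparse, with counts in some libraries and 0 in others of the same group. ZC3HAV1, which encodes the zinc finger antiviral protein, had 319, 115 and 232 counts with 2 portions in the dT screen and at most 2 counts in the 6 single-portion libraries. In the Bio screen it had 1265, 31 and 0 counts with 2 portions, 12 in run 1 of Trametinib_DMSO and 0 in the other single-portion libraries. Its fitted log2 fold change of 7.44 ± 1.37 depends on the prior count of the fit, and 1 library of the 6 held most of its counts. UBALD2 had 304, 197 and 72 counts with 2 portions in the dT screen, where the single-portion libraries reached 114, and 389, 316 and 347 counts in the Bio screen, where they reached 26. PSMG4, a chaperone of proteasome assembly, had 262, 450 and 439 counts with 2 portions in the Bio screen and at most 3 with 1. In the dT screen PSMG4 overlapped, with 192, 679 and 193 counts against 1 to 209. CD47, IGBP1 and PABIR2 were further leading genes on this side, with highest counts of 140, 329 and 390 with 2 portions and of 5, 53 and 62 with 1.

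On the lower side, CAPN2, the large subunit of a calpain protease, had 1, 1 and 0 counts with 2 portions in the dT screen and 2 to 231 with 1. In the Bio screen it had 0, 1 and 0 counts with 2 portions, and 227, 0 and 29 in Trametinib_DMSO and 24 and 0 in the used DMSO_Trametinib libraries. GTF2F1, a subunit of the general transcription factor TFIIF, had 0 counts in all 3 dT libraries with 2 portions and 5 to 81 in those with 1, while in the Bio screen it reached 2 and 178. PYCR1, which makes proline, had 37, 0 and 0 counts with 2 portions in the dT screen and 0 in all 3 Bio libraries. Single-portion libraries held 702, 152 and 338 PYCR1 counts in DMSO_Trametinib of the dT screen but only 4, 0 and 34 in Trametinib_DMSO, so in that screen only the DMSO_Trametinib libraries lay clear of those with 2 portions. ZFAND3, DGKZ, BANF1 and the pseudogenes MTND4P12 and RPL3P7 were further leading genes, with highest counts of 1 to 19 with 2 portions and 6 to 156 with 1.

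**Figure D4:**
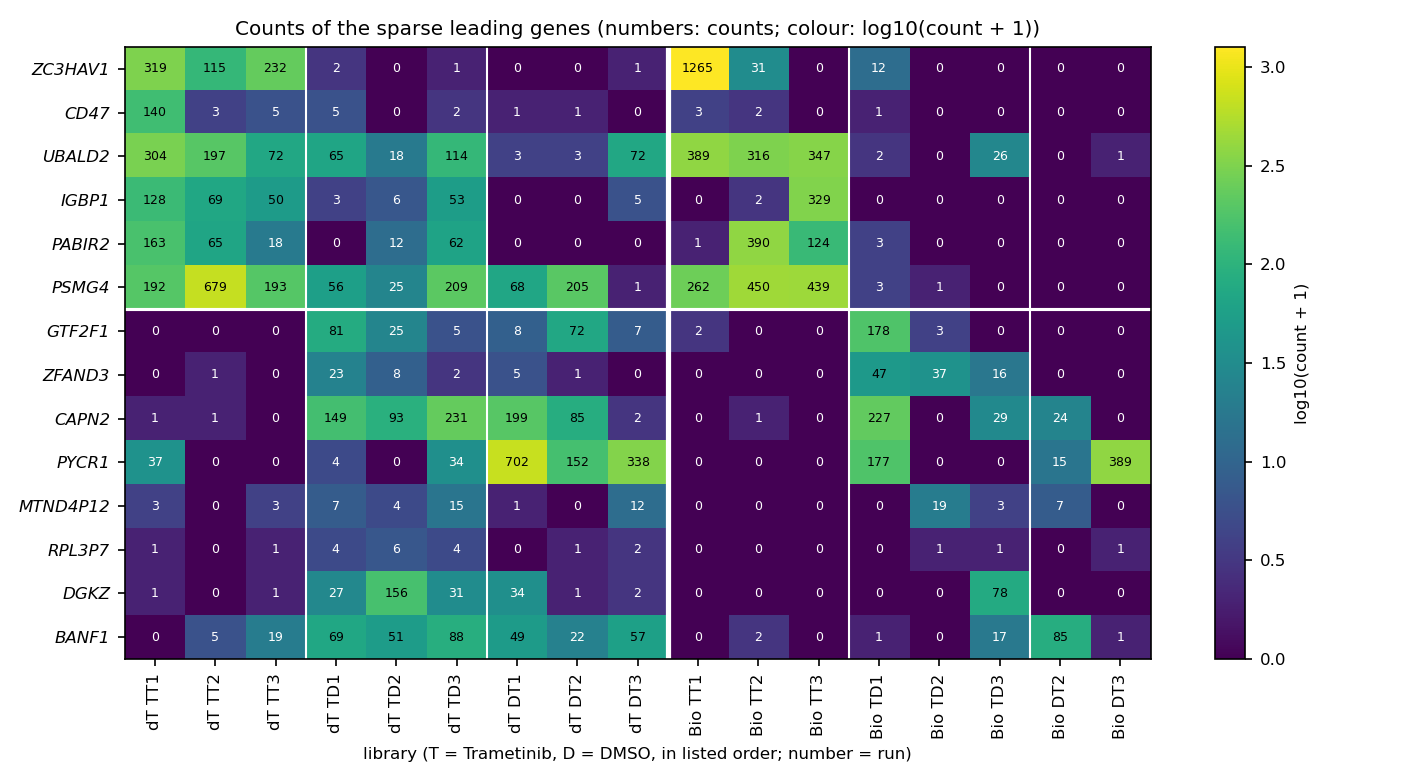
Counts of 14 sparse genes among the leading genes of the comparison, in the 17 libraries used (T, trametinib; D, DMSO, in listed order; number, run). The upper 6 genes were fitted higher and the lower 8 fitted lower with 2 portions, and colour gives log10(count + 1). The counts come in bursts, as in ZC3HAV1 with 1265 in one Bio library and 0 in another of the same group.

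Genes whose CPM did not overlap between the groups were few in either screen and none did so in both. In the dT screen 37 of 2478 genes (1.49%) lay above and 21 (0.847%) lay below all single-portion libraries. In the Bio screen 19 of 1120 (1.7%) lay above and 13 (1.16%) below. A random split of so few libraries gives shares of this order, so these counts are no result about the genes. Many of the named genes were also picked by small p in these same libraries. Among the named genes, ZC3HAV1 and CPD lay above and CAPN2, GTF2F1, DGKZ, BANF1 and PKM lay below in the dT screen. UBALD2, PSMG4, PSMG3, RPS15 and ATF4 lay above and FTL, BLVRB, MT2A, SF3B2 and YDJC lay below in the Bio screen. Of the 1502 genes tested in both screens together, 0 (0%) lay above and 0 (0%) lay below in both.

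Of the drug's own targets, MAP2K1 was mostly under the detection limit and MAP2K2 was not, while most of the ERK target genes were. MAP2K1 had a count in 2 of the 17 libraries, 147 in run 3 of the dT screen with 2 portions and 2 in a single-portion library. MAP2K2 was counted in 15 of 17 libraries. With 2 portions it had 348, 267 and 271 counts in the dT screen and 7, 2 and 246 in the Bio screen, and with 1 portion 4 to 302 and 0 to 248. The log2 fold change of MAP2K2 was 1.49 ± 1.52 (95% confidence interval -1.71 to 4.70, adjusted p = 0.999 by edgeR), an interval that holds large changes in either direction. Of the 20 genes listed for the chain from RAF to ERK, 19 were in the table and 6 were tested, of which 0 passed, 2 were fitted higher and 4 lower, with a median log2 fold change of -0.46.

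Of the 16 listed ERK target genes, 15 were in the table and 12 had any count in the 17 libraries. DUSP6 was not analysed here. MYC, a transcription factor that ERK signalling stabilises and induces, was the only target tested over both screens. It had 5, 0 and 1 counts with 2 portions in the dT screen and 0, 0 and 1 in the Bio screen. Single-portion dT libraries held 25, 59 and 0 counts in Trametinib_DMSO and 289, 0 and 103 in DMSO_Trametinib. The Bio libraries with 1 portion held 6, 0 and 0, and then 0 and 32. All 6 libraries with 2 portions thus had at most 5 counts of MYC, and 6 of 11 with 1 portion had any. In the dT solvent libraries MYC had 149, 0 and 114 counts, and in the Bio solvent libraries 0 in all 3. The fitted log2 fold change of MYC was -5.48 ± 2.16 (95% confidence interval -10.10 to -0.87), with an adjusted p of 0.816 by edgeR and 0.0491 by DESeq2.

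EGR1 and ETV5 were tested in the dT screen alone, with log2 fold changes of -1.12 ± 2.67 and 3.04 ± 2.89 that did not pass. EGR1, an early response transcription factor, had a count in 3 of 6 libraries with 2 portions (highest 49) and in 4 of 11 with 1 (highest 83). ETV5, an ETS factor, had 49 and 75 counts in 2 dT libraries with 2 portions and at most 14 with 1. SPRED2, a feedback inhibitor, had 1 and 1 counts in 2 dT libraries with 2 portions, and 18 and 118 in 2 with 1. SPRY4 was counted in 1 library, with 80 counts in run 2 of the dT screen with 2 portions, and DUSP4, SPRY2 and SPRED1 were listed at 0 in all 17. The summed CPM of the list had a median of 20.3 with 2 portions and 54.4 with 1, ranges of 0 to 614 and 0 to 1497, and so overlapped throughout. In the dT screen the medians with 2, 1 and 0 portions were 112, 241 and 580, with a solvent range of 0 to 970. In the Bio screen they were 0, 13.2 and 0, so the screens gave no common order.

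Gene lists are described by their counts and medians beside those of all genes. Over the 1502 genes tested, 52.9% were fitted higher with 2 portions, with a median log2 fold change of 0.086. The 37 tested proteins of the large ribosomal subunit had a median of 0.23 with 23 higher and 14 lower, and the 29 of the small subunit had a median of -0.10 with 14 higher and 15 lower. Under DESeq2 size factors they were 0.02 and -0.29, with genes counted in at least 90% of libraries both were -0.18, and against Trametinib_DMSO alone they were 0.34 and 0.32, so no direction can be given for the families as a whole. The summed CPM of the large subunit list ran from 115980 to 138770 with 2 portions and from 84303 to 167970 with 1.

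The erythroid list, which marks the identity of K562 cells, had 9 tested members with a median of 0.08. HBG2, a fetal globin, stood at 23592 to 38481 CPM with 2 portions and 20635 to 44677 CPM with 1 in the dT screen, with a log2 fold change of 0.06 ± 0.14 (95% confidence interval -0.23 to 0.36). This interval lay within 2-fold in either direction. HBG2 (0.39 ± 0.05) and RACK1 (0.44 ± 0.10) were among the 10 genes that passed in the dT screen against Trametinib_DMSO alone, where the spread was pooled. MT2A, a metallothionein, and RACK1, a ribosome-bound scaffold protein, were measured over both screens with like precision at 0.05 ± 0.12 and 0.09 ± 0.14. The MT2A value pooled opposite directions. In every alternative fit MT2A was higher in the dT screen (0.07 to 0.50) and lower in the Bio screen (-0.37 to -0.01). Its difference between the screens did not pass. ENO1, a glycolytic enzyme, stood at 0.06 ± 0.25. Over both screens, the direction of HBG2, MT2A, RACK1 and ENO1 turned negative with scaling by total counts alone and with DESeq2 size factors.

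Medians of the remaining lists were 0.03 for 10 mitochondrially encoded mRNAs, 0.03 for 16 nuclear-encoded respiratory chain genes, 0.06 for 9 glycolysis enzymes, 0.15 for 8 metallothionein and ferritin genes, -0.05 for 10 chaperones and -0.41 for 11 translation factors. Among the small lists, 6 mitotic and cell cycle genes had a median of -0.94, 6 genes of the integrated stress response 1.01 and 3 apoptosis genes 1.10. Their members were sparse, with standard errors such as 2.17 for STMN1, 1.59 for ATF4 and 2.15 for BAX. In every list 0 members passed the threshold. UQCRQ, a subunit of respiratory complex III, had a log2 fold change of 0.82 ± 0.37 (adjusted p = 0.887 by edgeR).

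Markers of other blood cells were near 0 in most libraries, with the highest summed level in a library with 2 portions. Of 10 such genes in the table, 7, CD3E among them, were listed at 0 in all 17 libraries. CD3D, a T cell receptor chain, had a count in 3 of 6 libraries with 2 portions, up to 347 in run 3 of the Bio screen, and in 0 of 11 with 1. PTPRC had a count in 2 libraries with 2 portions and in 1 with 1, and NKG7 had 1 count in 1 library with 2 portions. The summed level of the list ran from 0 to 1977 CPM with 2 portions, from 0 to 227 CPM with 1 and from 0 to 241 CPM in the solvent libraries. Of 5 megakaryocyte genes in the table, 4 had counts in 1 library each, up to 76, and 0 of either list could be tested. The part of these libraries in any result was not tested.

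**Figure D5:**
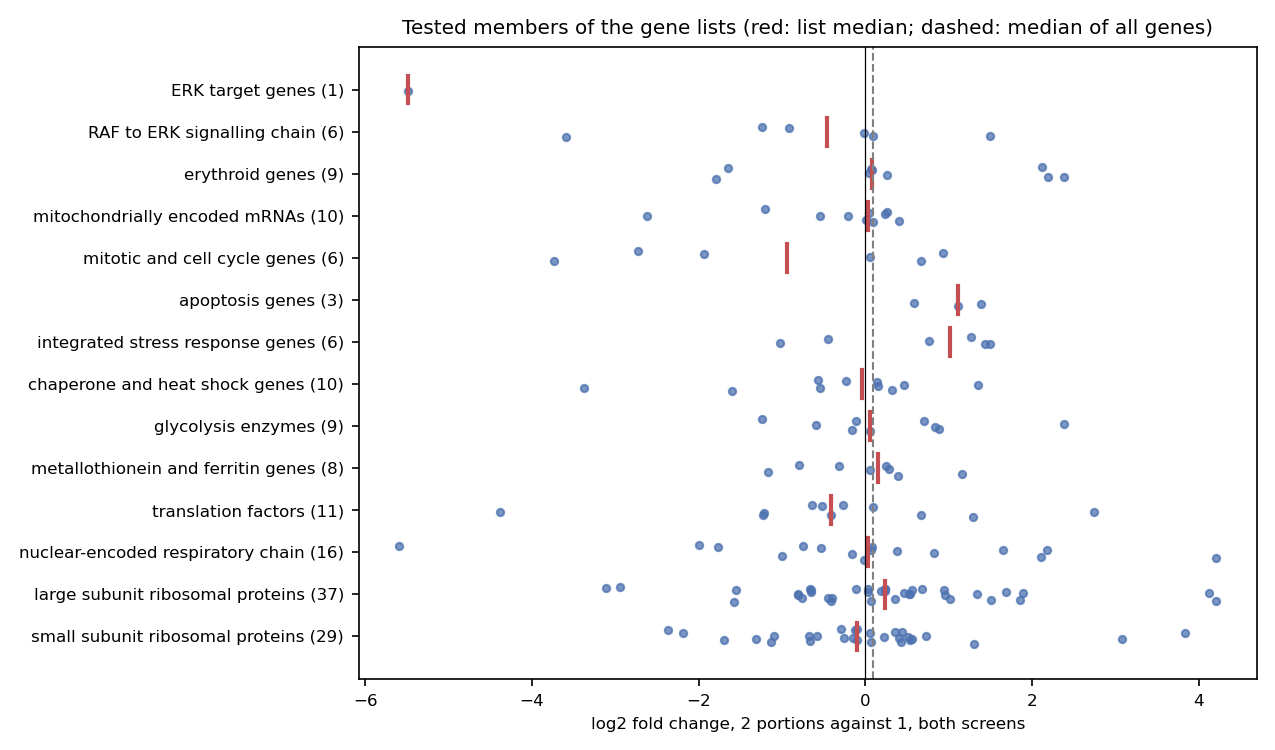
Fitted log2 fold change of 2 portions against 1 in both screens for each tested member of 14 gene lists (number tested in parentheses). Red bars are list medians and the dashed line is the median of all 1502 genes, 0.086. The members of every list spread on both sides of the dashed line except the 3 apoptosis genes and the single ERK target, and the medians of the longer lists lie within 0.5 of 0.

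Each screen was also fitted on its own. In the dT screen 2478 genes were tested in 9 libraries and 0 passed by edgeR (0%), with 95 (3.83%) at an unadjusted p under 0.05, 53 higher (2.14%) and 42 lower (1.69%), and 54 called by DESeq2. CPD, a carboxypeptidase, led with 227, 321 and 248 counts in the 3 libraries with 2 portions and at most 2 in the 6 with 1. CPD was at 0 in all 8 Bio libraries used, with and without the second portion. ARID4B, a subunit of a repressor complex, was at 0 in all 6 libraries with 2 portions of either screen, and in the dT screen at 121, 130 and 307 counts in Trametinib_DMSO and 0, 256 and 7 in DMSO_Trametinib. ARID4B was also at 0 in all 6 solvent libraries and in 3 of the 5 Bio libraries with 1 portion. CAMLG and the pseudogene SUZ12P1 were the other leading genes of the dT screen beside ZC3HAV1 and CAPN2.

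For the Bio screen 1120 genes were tested in 8 libraries and 0 passed by edgeR (0%), with 52 (4.64%) at an unadjusted p under 0.05, 24 higher (2.14%) and 28 lower (2.5%), and 63 called by DESeq2. SF3B2, a splicing factor subunit, had 0, 1 and 1 counts with 2 portions, against 651, 1061 and 250 in Trametinib_DMSO and 3 and 267 in the used DMSO_Trametinib libraries. In the dT screen SF3B2 had 1005, 388 and 119 counts with 2 portions and 96 to 371 with 1, so that its fitted log2 fold change was 0.56 ± 0.79 there and -9.43 ± 2.67 in the Bio screen. YDJC was at 0 in the 3 Bio libraries with 2 portions and at 29 to 362 counts in those of the dT screen. EIF5A, a translation factor, was at 0 with 2 portions in the Bio screen and at 14, 15 and 24 counts in Trametinib_DMSO. With the DMSO_Trametinib libraries included the groups overlapped, as EIF5A did not lie below every single-portion library. PSMG3 and ISOC2 led on the higher side beside RPS15, with highest counts of 10 and 37 in the Bio libraries with 2 portions.

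The difference between the screens was tested itself. By edgeR 0 of 1502 genes passed (0%) for the term of portion by screen, with 96 (6.39%) at an unadjusted p under 0.05, 49 larger (3.26%) and 47 smaller (3.13%) in the Bio screen, and DESeq2 called 115. For RPS15 the Bio screen exceeded the dT screen by 0.51 on the log2 scale and for RPL31 by 0.31. FTL differed by -0.11. None of these differences passed the test.

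The solvent libraries place the step from 1 to 2 portions on a wider scale. The fit of 23 libraries shares its trametinib libraries with the comparison above, so its values are given side by side and not as further evidence. Of 1306 genes tested, 0 passed (0%) for 2 portions against solvent by edgeR, with 129 (9.88%) at an unadjusted p under 0.05, 95 higher (7.27%) and 34 lower (2.6%), while DESeq2 called 111. The median over all genes was 0.50, and 0.23 with scaling by total counts alone. Solvent libraries were shallower than those with 2 portions, with 174365 to 198316 counts in the dT screen and 81806 to 147320 in the Bio screen. The part of depth in these values was not tested. RPL34 stood 0.60 ± 0.14 above solvent with 2 portions and 0.30 above it with 1, and RPL31 at 0.59 ± 0.15 and 0.18, with adjusted p-values of 0.111 by edgeR for both genes. RPS15 stood at 0.65 ± 0.17 with 2 portions and at 0.05 with 1, near the solvent level. With 2 portions RPL34, RPL31 and RPS15 thus lay close to the median gene of the fit, at 0.50. A median for 1 portion against solvent is not given here, so the steps from 1 to 2 portions cannot be read against it.

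FTL and BLVRB stood farther from solvent with 1 portion than with 2 when both listings were pooled. FTL was at -0.05 ± 0.28 with 2 portions and 0.69 with 1, and BLVRB at 1.25 ± 1.00 and 2.99. For BLVRB this order did not hold in the DMSO_Trametinib listing of the dT screen, whose 1520, 1180 and 3278 CPM overlapped the solvent libraries at 776, 2231 and 1422 CPM and were below those with 2 portions in each run. PYCR1 had 238, 710 and 359 counts in the dT solvent libraries and 701, 279 and 162 in the Bio solvent libraries, and 0 in 5 of 6 libraries with 2 portions. Its fitted log2 fold change of -10.19 had an adjusted p of 0.111 by edgeR, and the gene passed when the filter on low counts was left out, in a fit that pooled the spread over genes. DESeq2 called PYCR1 with an adjusted p of 2.8e-07 against solvent and of 0.000252 for 2 portions against 1. The reads of ribosomal protein genes and of HBG2 can be shared with close copies or pseudogenes, and the counting was not stated to use strand, so their levels are uncertain to that extent.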

How the data were processed

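K562 droplets were sequenced as 102 libraries, and the authors deposited a table of whole-number counts of reads for each gene, not normalised. Per the labels, STAR 2.4.2a and GRCh38 were used. The authors assigned reads to drug pairs by the ligated barcodes. Removal of PCR duplicates by molecular identifiers was not described, so limits from counts cover counting error only. The table held 24965 genes, of which 24539 were given a symbol. Coordinates are those of GENCODE release 29. It held 0 entries that name no gene.

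Groups came from the labels. Libraries with fewer than 1000 detected genes were dropped. A gene was tested where 50% or more of the libraries used held a count, with edgeR 4.0.16 in R 4.3.3 (TMM, glmQLFit, glmQLFTest, Benjamini-Hochberg adjustment, threshold 0.05). Screen and run formed a block of 6 levels, because 2 screens of 3 replicates were kept in separate raw files. Residuals of same-run libraries had a mean correlation of 0.089 in the dT and 0.0591 in the Bio screen. Other pairs had -0.0443 and -0.0293. Residuals were centred within each group, which forces the mean of other pairs below 0 when that of same-run pairs lies above it. The value of other pairs is thus no separate evidence of pairing. Of the same-run pairs, 8 of the 18 dT and 8 of the 15 Bio pairs exceeded 0.1. DESeq2 1.42.0 was an alternative. CPM is the count scaled to a common library total (edgeR's usual CPM unit), without TMM factors. A standard error is the absolute log2 fold change divided by the square root of F, and intervals are 95%. Where counts are near 0, the prior count sets much of the fitted fold change. Library measures were tested by exact permutation within runs. Library measures and plots came from scipy 1.17.1 and matplotlib 3.10.9 with pandas 2.3.3 and numpy 2.4.6 under Python 3.11.15, and the scripts were tested on simulated data. Of 24 replicate pairs, 0 held identical counts.

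Named genes were the 10 higher and 10 lower with the smallest p over both screens, 3 and 3 per screen, the 3 most abundant tested members of each gene list, and the drug targets with the ERK target list. Some genes that this rule names are not reported here. Markers of other blood cells (CD3D, CD3E, PTPRC, NKG7) and MT-TC were named after their values were seen. Members and lists were chosen with earlier results of these data known. Alternatives covered scaling, tool, filters, the block, the listing of the single portion and each library left out. An order term and scaling by total counts alone were added after seeing the data.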

Additional observations from a re-analysis of the deposited data

Results flagged for a closer look

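Groups of 5 or 6 libraries were screened by Dixon's test over 3 library measures and the named genes counted in every library. The groups with 2 portions pooled both screens. Of 72 groups, 6 held a library far from the others, where chance gives about 1 in 20. With 2 portions, run 1 of the Bio screen had 4603 CPM of HSPE1 (median of the 6 libraries 1942), a mitochondrial chaperonin, and 10006 CPM of EEF2 (median 2738), the elongation factor of translation. With 1 portion in the dT screen, DMSO_Trametinib run 3 had 8872 CPM of ENO1 (median 4961) and DMSO_Trametinib run 2 had 5076 CPM of MT1X (median 2491), a metallothionein. With 1 portion in the Bio screen, Trametinib_DMSO run 3 had 8628 CPM of BLVRB (median 2585) and Trametinib_DMSO run 1 had 20158 CPM of RACK1 (median 12159).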

How the results depend on the processing

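By edgeR, 0 genes passed in any of the 5 comparisons with DESeq2 size factors, for genes counted in 90% or more of the libraries, without the filter on detected genes, with a limit on mitochondrial counts, with no replicate block, and with scaling by total counts alone. DESeq2's own test called 49 genes in both screens together, 54 in dT, 63 in Bio, 115 between screens and 111 against solvent. Against Trametinib_DMSO alone 3, 10 and 4 genes passed (both, dT, Bio), and against DMSO_Trametinib alone 0, 8 and 4. With edgeR's own filter 2 genes passed in both screens together, both higher, RPL31 among them, in a fit that pooled the spread over genes. Against solvent 1 gene passed without a filter on low counts (PYCR1, lower), and 1 with an order term (MT-TC, higher). With each library left out, counts ranged from 0 to 0 in both, dT, Bio and solvent, and from 0 to 1 between screens, where 1 gene passed without run 2 of the Bio DMSO_Trametinib group. The cause of these differences was not tested. Runs pair the libraries, and with no replicate block the unadjusted count in both screens was 105 instead of 80. The log2 difference in total counts was 0.57 in dT alone (exact permutation p = 0.111), 0.54 in Bio alone (p = 0.167), 0.22 against Trametinib_DMSO alone and 1.02 against DMSO_Trametinib alone (p = 0.0625 each), and 0.48 to 0.63 with each library left out. The difference in detected genes was -274 against Trametinib_DMSO alone, 207 to 522 with each library left out, and 73.1 at an equal depth of 82879 counts. That in mitochondrial percent was -0.66 points against Trametinib_DMSO alone (exact permutation p = 0.0313), 0.54 against DMSO_Trametinib alone, and -0.35 to 0.0225 with each library left out, the highest without run 1 of the Bio 2-portion group or of Bio Trametinib_DMSO. Precision was limited for most genes, since 34 of 1502 had an interval within 2-fold, and the part of depth in this was not tested.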
